A study of Homo sapiens with 4 samples.

Results

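The IFIT and IFITM genes are a pair of small families switched on by interferon, and 7 of them are described here in MM134 cells: IFIT1, IFIT2, IFIT3 and IFIT5, and IFITM1, IFITM2 and IFITM3. They were found by gene symbol among the 60675 genes of the tables, and all 7 were among the 16538 genes with enough counts to test. The set was put together with differences between the lines already in view, so those differences are given below as a description with no test. MM134 is an estrogen receptor positive line from a lobular breast carcinoma. RNA sequencing covered 2 libraries of HER2 L755S cells, which carry a substitution in the kinase domain of HER2, and 2 libraries of HER2 WT cells. Every library came from cells deprived of estrogen, held for 7 days in phenol red free medium with 5% charcoal-stripped serum after reaching 70% confluence. The labels do not say how HER2 was introduced or altered, whether either line was a single clone, or whether each library had its own culture. The p-values therefore cover the spread among the 4 libraries, and part or all of that spread may be technical.

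Interferons bind receptors that act through JAK1 and TYK2, and a complex that includes STAT2 and IRF9 then binds a DNA element called the ISRE near the genes it induces. IFIT proteins are cytosolic and bind RNA that looks foreign: IFIT1 holds caps that lack ribose methylation, IFIT3 steadies IFIT1, IFIT2 joins the same assemblies, and IFIT5 holds RNA with triphosphate ends. IFITM proteins sit in membranes and hinder the fusion of viruses with the cell, IFITM1 largely at the cell surface and IFITM2 and IFITM3 largely in endosomes. Both families are induced by interferon in epithelial cells.

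In GENCODE 29 on GRCh38, the build named in the submitters' processing notes, the 4 IFIT genes lie on the plus strand of chromosome 10. IFIT2 spans 89283694 to 89309276, IFIT3 spans 89327894 to 89340971, IFIT1 spans 89392546 to 89406486 and IFIT5 spans 89414586 to 89421001. The IFITM genes lie at the short-arm end of chromosome 11, IFITM2 at 307631 to 315272 and IFITM1 at 313506 to 315272 on the plus strand, and IFITM3 at 319669 to 327537 on the minus strand. All 7 are protein-coding, and the annotated span of IFITM2 covers that of IFITM1.

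The stretches below, from RefSeq promoter windows on GRCh38.p14, are shown because both families carry the element through which interferon acts, although the families differed in opposite directions between the lines. A window runs from 250 bases before to 50 bases after a gene's start, and 5 of the 7 members matched one (IFIT1, IFIT3, IFIT5, IFITM1 and IFITM3). Capitals mark the core of the ISRE, searched on both strands as GAAA, any 2 bases, then GAAA, which reads as TTTC, any 2 bases, then TTTC where it lies on the other strand.
IFIT1, chr10:89392487-89392549, plus strand: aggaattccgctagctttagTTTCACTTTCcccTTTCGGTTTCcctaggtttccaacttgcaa
IFIT3, chr10:89327821-89327904, plus strand: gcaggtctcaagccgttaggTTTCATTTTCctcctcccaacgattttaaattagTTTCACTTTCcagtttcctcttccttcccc
IFIT5, chr10:89414503-89414573, plus strand: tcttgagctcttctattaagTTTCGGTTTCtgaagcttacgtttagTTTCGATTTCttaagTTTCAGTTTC
IFITM1, chr11:313980-314043, plus strand: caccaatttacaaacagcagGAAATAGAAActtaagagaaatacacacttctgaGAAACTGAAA
IFITM3, chr11:320866-320932, minus strand: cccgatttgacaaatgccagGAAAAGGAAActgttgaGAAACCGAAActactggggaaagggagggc

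IFIT5 held 3 such matches and IFIT1, IFITM1 and IFITM3 held 2 each, as did each of 2 windows of IFIT3, the first of which is printed. Over all 35116 windows, 3.57% held at least 1 match and 0.259% held 2 or more. The matches lay up to 156 bases before the start, and those nearest the start in IFIT5 and IFITM1 crossed it. In the IFIT windows every match lay on the strand opposite to the gene, and in the IFITM windows every match lay on the gene's own strand. The element GAS, searched as TTCNNNGAA, which reads alike on both strands, was found once, in the window of IFITM1, and in 7.66% of all windows. Its match there overlapped the second ISRE match of IFITM1. Of 41 other interferon-stimulated genes with a window, 26 (63.4%) held the ISRE core in at least 1 of their windows. This share is per gene and the 3.57% is per window, so they are not in like units. A match to these letters is a description of the window and not a measured binding site.

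The libraries held between 27423247 and 31088422 expected counts. Mitochondrial transcripts took 4.03% and 13.5% of the counts in HER2 L755S 1 and 2, against 4.395% and 8.83% in HER2 WT 1 and 2, so values are also given within each replicate number. Luminal epithelial markers summed to 6456 and 7068 CPM (counts scaled to library size) in HER2 L755S and to 7709 and 7011 CPM in HER2 WT libraries. The sum does not speak for each marker. ESR1, the estrogen receptor gene, stood at 64.7 and 122 CPM in HER2 L755S, against 176 and 282 CPM in HER2 WT libraries (log2 fold change -1.29). Of the 7 markers, 3 had a positive log2 fold change, and edgeR called 0 of the list. The 10 leukocyte markers, whose cells express both families, summed to 0.957 and 0.0779 CPM in HER2 L755S and to 1.08 and 0.482 CPM in HER2 WT libraries, and CD3E, MS4A1 and FCGR3A stood at 0 counts in all 4 libraries. ERBB2, which encodes HER2, stood at 2443 and 1203 CPM in HER2 L755S 1 and 2, against 1934 and 1936 CPM in HER2 WT 1 and 2. Since all groups carry a HER2 transcript, this level does not check the labels.

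HER2 L755S cells had more RNA of all 4 IFIT genes and less of all 3 IFITM genes than HER2 WT cells. The log2 fold changes of the IFIT genes lay between 2.17 and 2.49 over all libraries, and between 1.80 and 3.21 within number 1. Those of the IFITM genes lay further apart, with IFITM1 at -0.88 and IFITM2 and IFITM3 at -4.23 and -4.27. In edgeR's fit across all genes 5 of the 7 members passed an adjusted p under 0.05, where 1.69% of all tested genes did, and nothing is read from this count because the members were chosen on this contrast. No member overlapped between the lines, which held for 16.9% of all tested genes in the direction of the IFIT genes and for 19.3% in that of the IFITM genes. In bulk RNA, fewer cells with a transcript and less of it per cell cannot be told apart.

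**Figure D1:**
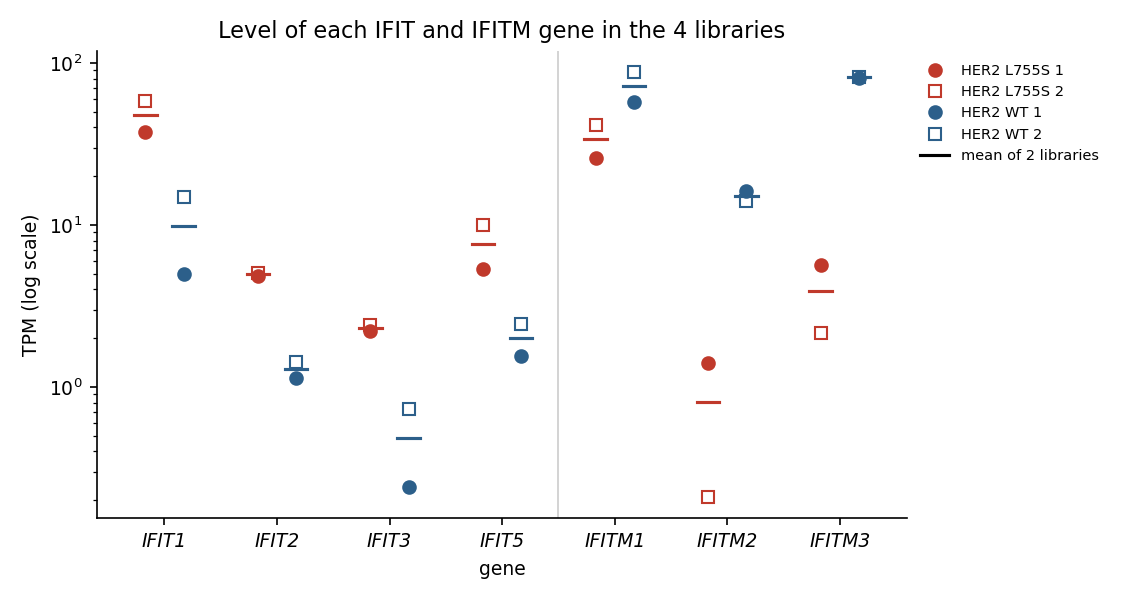
TPM of each member on a log axis in HER2 L755S (red) and HER2 WT (blue) libraries, with filled circles for number 1, open squares for number 2 and a line at the mean of the 2 libraries. Every IFIT gene is higher and every IFITM gene lower in both HER2 L755S libraries, from IFIT1 at 37.5 and 58.5 TPM against 4.99 and 14.8 TPM to IFITM3 at 5.62 and 2.15 TPM against 81.0 and 82.0 TPM.

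IFIT1, the sensor of unmethylated caps, was the most abundant IFIT gene in every library. Per length it stood at 37.53 and 58.45 TPM (the authors' values, corrected for transcript length) in HER2 L755S 1 and 2, against 4.99 and 14.8 TPM in HER2 WT 1 and 2. Both HER2 L755S libraries were above both HER2 WT libraries, and in each line number 2 was the higher one. In CPM it averaged 72.9 ± 33.8 in HER2 L755S and 12.9 ± 9.31 in HER2 WT cells (SD, n = 2 each), a log2 fold change of 2.49 (SE 0.53). The difference in log2 CPM was 2.94 within number 1 and 2.31 within number 2, and the log2 fold change was 1.90 without HER2 WT 1 and 3.54 without HER2 WT 2.

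IFIT5, which binds triphosphate-ended RNA, came next. It stood at 5.32 and 9.95 TPM in HER2 L755S 1 and 2 and at 1.56 and 2.45 TPM in HER2 WT 1 and 2. HER2 L755S 2 stood apart from the other libraries, and the lines did not overlap. The CPM were 26.6 ± 15.4 in HER2 L755S and 5.91 ± 2.02 in HER2 WT cells (SD, n = 2 each), with a log2 fold change of 2.17 (SE 0.47). Within number 1 the difference was 1.80 and within number 2 it was 2.35, and the log2 fold change was 2.67 without HER2 L755S 1 and 1.41 without HER2 L755S 2.

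IFIT2, a partner of IFIT1 and IFIT3, was the steadiest member of its family within each line. Its level was 4.82 and 5.07 TPM in HER2 L755S 1 and 2 and 1.13 and 1.43 TPM in HER2 WT 1 and 2. The pairs gave nearly the same difference, 2.23 within number 1 and 2.15 within number 2, and the log2 fold change was 2.19 (SE 0.40). IFIT3, which stabilises IFIT1 on RNA, was the least abundant IFIT gene, at 2.21 and 2.41 TPM in HER2 L755S 1 and 2 and at 0.24 and 0.73 TPM in HER2 WT 1 and 2. Few reads stand behind the low end, with 113 and 138 counts in HER2 L755S and 13 and 38 counts in HER2 WT libraries. The log2 fold change of IFIT3 was 2.44 (SE 0.59), with 3.21 within number 1 and 2.02 within number 2, and it was 1.81 without HER2 WT 1 and 3.53 without HER2 WT 2.

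IFITM3, the endosomal restriction factor, had the highest mean TPM of the members in HER2 WT cells and rank 5 in HER2 L755S cells. In HER2 WT 2 taken alone IFITM1 was higher, at 87.85 TPM. IFITM3 stood at 5.62 and 2.15 TPM in HER2 L755S 1 and 2, against 80.96 and 82.01 TPM in HER2 WT 1 and 2. The HER2 WT libraries were nearly equal, and the HER2 L755S libraries differed from each other. The counts behind these values were 75 and 32 in HER2 L755S and 1170.77 and 1096.67 in HER2 WT libraries. In CPM IFITM3 averaged 1.91 ± 0.932 in HER2 L755S and 37.0 ± 1.13 in HER2 WT cells (SD, n = 2 each). The log2 fold change was -4.27 (SE 0.44), with -3.81 within number 1, and -4.90 within number 2. It was -4.89 without HER2 L755S 1 and -3.85 without HER2 L755S 2.

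IFITM2, its close paralog, followed the same course at a lower level. It stood at 1.41 and 0.21 TPM in HER2 L755S 1 and 2 and at 16.16 and 13.99 TPM in HER2 WT 1 and 2. HER2 L755S 2 held only 3 counts of it, so the ratio of HER2 L755S 2 to HER2 WT 2 was 0.0220 with a 95% interval of 0.00450 to 0.0656 (exact, counting error only). Within number 1 that ratio was 0.0767 (0.0412 to 0.132), and the log2 fold change over all libraries was -4.23 (SE 0.63), or -5.58 without HER2 L755S 1 and -3.59 without HER2 L755S 2.

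IFITM1, the cell-surface member, stayed abundant in both lines. Its level was 25.77 and 41.59 TPM in HER2 L755S 1 and 2 and 56.94 and 87.85 TPM in HER2 WT 1 and 2. The lines came close to each other without overlapping, and in each line the library of number 2 was the higher one. In CPM it averaged 19.4 ± 9.43 in HER2 L755S and 35.7 ± 11.6 in HER2 WT cells (SD, n = 2 each), a log2 fold change of -0.88 (SE 0.42), with -1.11 within number 1 and -0.75 within number 2. It was -0.45 without HER2 L755S 1 and -1.49 without HER2 L755S 2.

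**Figure D2:**
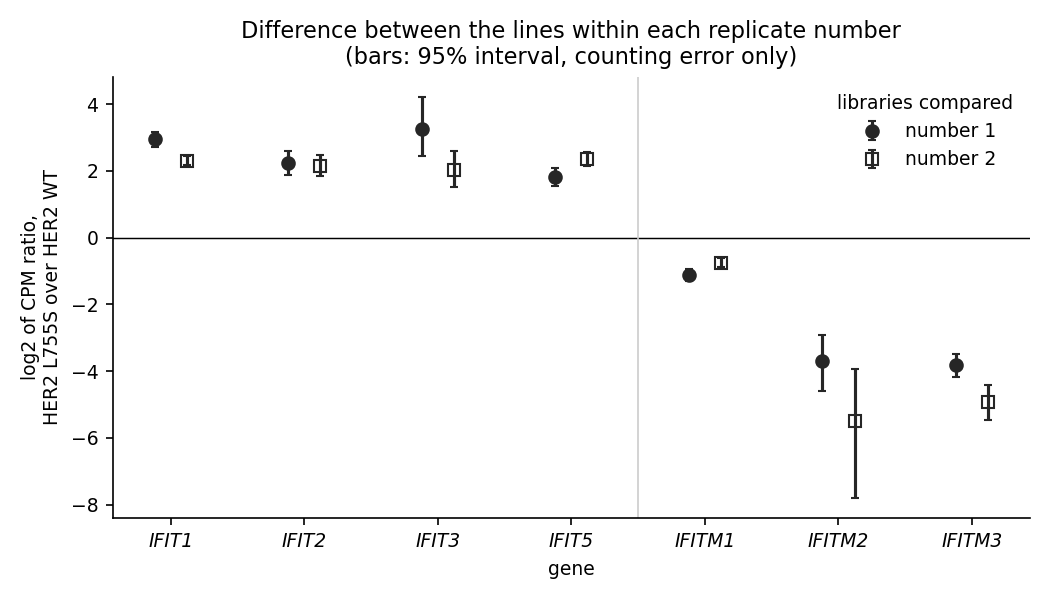
Log2 of the CPM ratio of HER2 L755S over HER2 WT for each member within number 1 (filled circles) and number 2 (open squares), with 95% intervals that cover counting error only. The IFIT genes lie between 1.81 and 3.27 above zero, IFITM1 at -1.11 and -0.75, and IFITM2 and IFITM3 at -3.71 or lower.

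The order of the levels per length differed between the lines. In HER2 L755S cells the TPM ran from IFIT1 (48.0 ± 14.8) and IFITM1 (33.7 ± 11.2) through IFIT5 (7.64 ± 3.27), IFIT2 (4.95 ± 0.177), IFITM3 (3.89 ± 2.45) and IFIT3 (2.31 ± 0.141) to IFITM2 (0.810 ± 0.849; SD, n = 2 each). There IFIT1 and IFITM1 overlapped, as did IFITM3 with IFIT5, with IFIT2 and with IFIT3. In HER2 WT cells the TPM ran from IFITM3 (81.5 ± 0.743) and IFITM1 (72.4 ± 21.9) through IFITM2 (15.1 ± 1.53), IFIT1 (9.90 ± 6.94), IFIT5 (2.01 ± 0.629) and IFIT2 (1.28 ± 0.212) to IFIT3 (0.485 ± 0.347; SD, n = 2 each). There IFITM3 and IFITM1 overlapped, as did IFITM2 and IFIT1, while the other neighbours in the order did not.

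Summed over each family, the balance of the families was turned over. The 4 IFIT genes summed to 49.9 and 75.9 TPM in HER2 L755S 1 and 2 and to 7.92 and 19.4 TPM in HER2 WT 1 and 2. The 3 IFITM genes summed to 32.8 and 43.95 TPM in HER2 L755S 1 and 2 and to 154.06 and 183.85 TPM in HER2 WT 1 and 2. The ratio of IFIT to IFITM transcripts was thus 1.52 and 1.73 in HER2 L755S libraries and 0.0514 and 0.106 in HER2 WT libraries. Fitted as 1 feature each in edgeR, the IFIT sum had a log2 fold change of 2.37 (SE 0.47; 2.54 within number 1 and 2.29 within number 2) and the IFITM sum one of -1.86 (SE 0.37; -2.15 and -1.66).

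The share of IFITM1 in its family did not overlap between the lines, and that of IFIT1 in its family did. IFITM1 gave 78.6% and 94.6% of the IFITM transcripts in HER2 L755S 1 and 2, and 37.0% and 47.8% in HER2 WT 1 and 2. Its ratio to IFITM3 was 4.59 and 19.3 in HER2 L755S libraries and 0.703 and 1.07 in HER2 WT libraries. IFIT1 gave 75.2% and 77.0% of the IFIT transcripts in HER2 L755S 1 and 2, and 63.0% and 76.2% in HER2 WT 1 and 2.

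Sequence shared between paralogs limits the split of reads within the IFITM family but not within the IFIT family. Of the 50-base windows in the GENCODE 29 transcripts of IFITM2, 29.7% also occur in IFITM1 or IFITM3, and the share was 31.96% for IFITM1 and 16.02% for IFITM3. The part shared by IFITM1 and IFITM2 includes their overlapping annotation. No 50-base window was shared among the IFIT genes. The expected counts show where reads were divided: IFITM2 and IFITM3 had fractional counts that added to a whole 1373 in HER2 WT 1 and 1251 in HER2 WT 2, and IFITM1 and IFITM2 added to a whole 386 in HER2 L755S 1. In HER2 L755S 2 all 3 counts were whole. The summed counts do not depend on how reads were divided among the 3 genes.

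The replicate number, which was not used in choosing the members, gives a contrast that can be tested. With the line as a term in edgeR, 3 members were higher in number 2 than in number 1: IFIT1, IFIT5 and IFITM1. The log2 difference was 1.28 (SE 0.21) for IFIT1, 1.00 (SE 0.22) for IFIT5 and 0.85 (SE 0.20) for IFITM1 (edgeR, Benjamini-Hochberg adjusted p = 0.0017, 0.0084 and 0.0105). Each of the 3 genes was higher in number 2 within both lines, by 0.98, 1.25 and 1.03 in HER2 L755S and by 1.61, 0.71 and 0.68 in HER2 WT cells. Of all tested genes 18.2% were called, 8.26% higher and 9.94% lower in number 2. IFITM1 thus stood with IFIT1 and IFIT5 between the numbers and opposite to them between the lines.

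The other members did not pass this test. The log2 difference of number 2 over number 1 was 0.46 for IFIT2, 0.96 for IFIT3, -0.66 for IFITM2 and -0.33 for IFITM3 (edgeR, adjusted p = 0.22, 0.12, 0.33 and 0.40). No member was called lower, by edgeR, by DESeq2, by limma-voom or at an unadjusted p under 0.05. The labels do not say what the number stands for, and 3 collagen genes moved with it as well. Among 10 markers of fibroblasts and endothelium, COL1A2 had 49 and 45 counts in the number 2 libraries of HER2 L755S and HER2 WT and 6 and 0 in number 1, COL3A1 had 32 and 53 against 0 and 1, and COL1A1 was lower in number 2. The list summed to 62.2 and 54.9 CPM in number 2, against 115 and 101 CPM in number 1, with PECAM1 and CDH5 at 0 counts throughout. The part of these transcripts, and of the mitochondrial share, in the difference between numbers was not tested. Without a term for the line no gene of the whole table passed in either direction, and adjusted p was 0.66, 0.55 and 0.41 for IFIT1, IFIT5 and IFITM1. Of the 62 tested genes of 5 other interferon lists (ligands, receptors, signalling, sensors and other induced genes), 7 were higher and 6 lower in number 2. Over all tested genes 8.26% were higher and 9.94% lower, so these counts lie near the background and nothing is read from them. The higher ones include the RNA sensor IFIH1, the kinase EIF2AK2 and the helicase-like DDX60. The lower ones include the factors IRF3 and IRF7 and the nuclease ISG20.

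**Figure D3:**
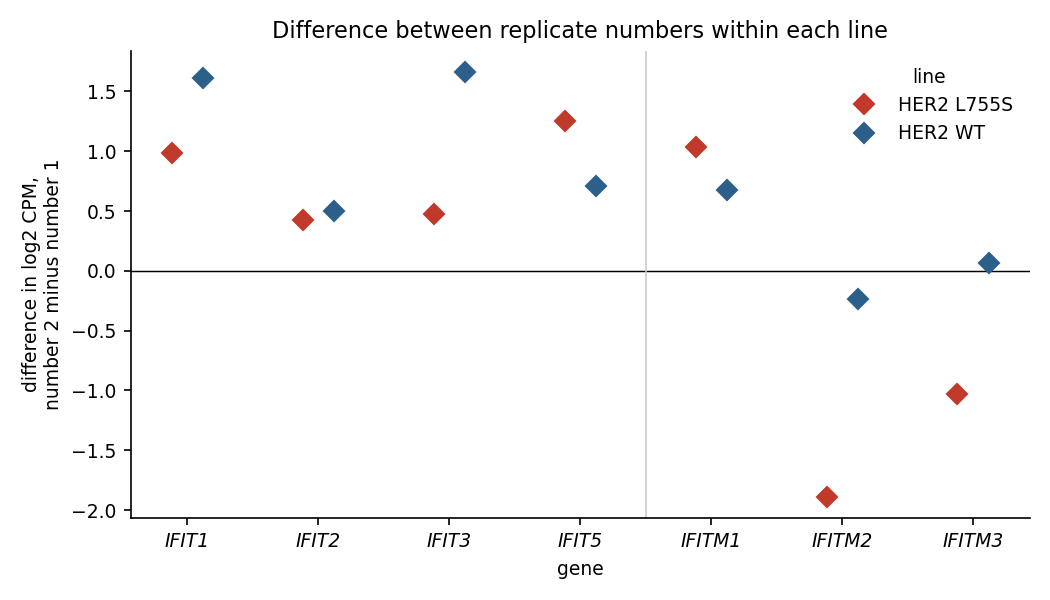
Difference in log2 CPM of number 2 minus number 1 for each member, within HER2 L755S (red) and within HER2 WT cells (blue), 1 library per point and number. IFIT1, IFIT5 and IFITM1 are above zero in both lines, between 0.68 and 1.61, while IFITM2 and IFITM3 reach -1.89 and -1.03 in HER2 L755S cells.

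Upstream of both families, no receptor and no signalling gene of interferon was called between the lines by edgeR, out of 6 and 12 tested. At an unadjusted p under 0.05 there was 1, IRF9, which DESeq2 called and limma-voom did not. IRF9, the DNA-binding partner of STAT2, stood at 88.5 and 104 CPM in HER2 L755S, against 41.8 and 48.9 CPM in HER2 WT libraries (log2 fold change 1.09, SE 0.32, edgeR adjusted p = 0.14). STAT2 had a log2 fold change of -0.04 (edgeR adjusted p = 1.00). Interferon genes themselves were near zero, with at most 4 counts of any of the 9 in a library.

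Among sensors of foreign nucleic acid, the smallest adjusted p in edgeR belonged to a gene that was higher and a gene that was lower. Neither passed the threshold in edgeR over all libraries and filtered genes. CGAS (MB21D1 in the tables), the DNA sensor, stood at 1.23 and 2.53 CPM in HER2 L755S libraries, against 0.309 and 0.310 CPM in the HER2 WT ones, with a log2 fold change of 2.58 (SE 0.64, adjusted p = 0.075). Its adaptor STING1 (TMEM173) stood at 0.718 and 0.779 CPM in HER2 L755S, against 3.09 and 3.03 CPM in HER2 WT libraries, with a log2 fold change of -2.03 (SE 0.50, adjusted p = 0.075). DESeq2 called both, at adjusted p = 0.038 and 0.035, and edgeR with no filter on low counts called both as well (0.0033 and 0.011). The log2 fold change of CGAS was 3.02 without HER2 L755S 1 and 1.97 without HER2 L755S 2. That of STING1 was -1.97 and -2.09. Limma-voom called none of the 8 sensors tested, and at an unadjusted p under 0.05 there were 2 higher and 1 lower. Besides CGAS, the higher gene was the RNA sensor IFIH1 (log2 fold change 1.07, SE 0.42, edgeR adjusted p = 0.33). IFIH1 stood at 31.5 and 53.5 CPM in HER2 L755S, against 13.8 and 26.7 CPM in HER2 WT libraries.

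Of 36 other interferon-stimulated genes tested, ISG15 and IFI6 rose and none fell in edgeR. At an unadjusted p under 0.05, 11 were higher and 3 lower, DESeq2 called 4 higher and 1 lower, and limma-voom called 2 higher. ISG15, a ubiquitin-like modifier, stood at 15.5 and 13.9 CPM in HER2 L755S, against 3.55 and 3.99 CPM in HER2 WT libraries (log2 fold change 1.96, SE 0.37, adjusted p = 0.026). IFI6, a membrane protein that restricts viruses, stood at 71.8 and 44.0 CPM in HER2 L755S, against 15.2 and 15.8 CPM in HER2 WT libraries (1.90, SE 0.36, adjusted p = 0.027, and 0.061 without HER2 L755S 1). The membrane tether BST2 had a log2 fold change of 1.39 and OASL of 1.57 (edgeR adjusted p = 0.059 and 0.061), and SP100, of nuclear bodies, had -2.33 (adjusted p = 0.091). All 3 were called by DESeq2 (adjusted p = 0.0028, 0.0032 and 0.035) and by edgeR with no filter (0.0034, 0.0071 and 0.0033). Limma-voom called none of the 3 (adjusted p = 0.054, 0.074 and 0.079). Without HER2 L755S 1 the log2 fold changes of BST2, OASL and SP100 were 1.15, 1.81 and -3.29. Without HER2 L755S 2 they were 1.60, 1.27 and -1.78. CMPK2 had 17 and 10 counts in HER2 L755S and 1 and 1 in HER2 WT libraries. The median of the 36 was 0.39, with 0.51 within number 1 and 0.21 within number 2, beside 0.00317 over all 16538 genes, of which 0.738% were called higher and 0.949% lower. A further 12 genes of this list, among them IFI44, OAS2 and RSAD2, had at most 34 counts in a library and were not tested.

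**Figure D4:**
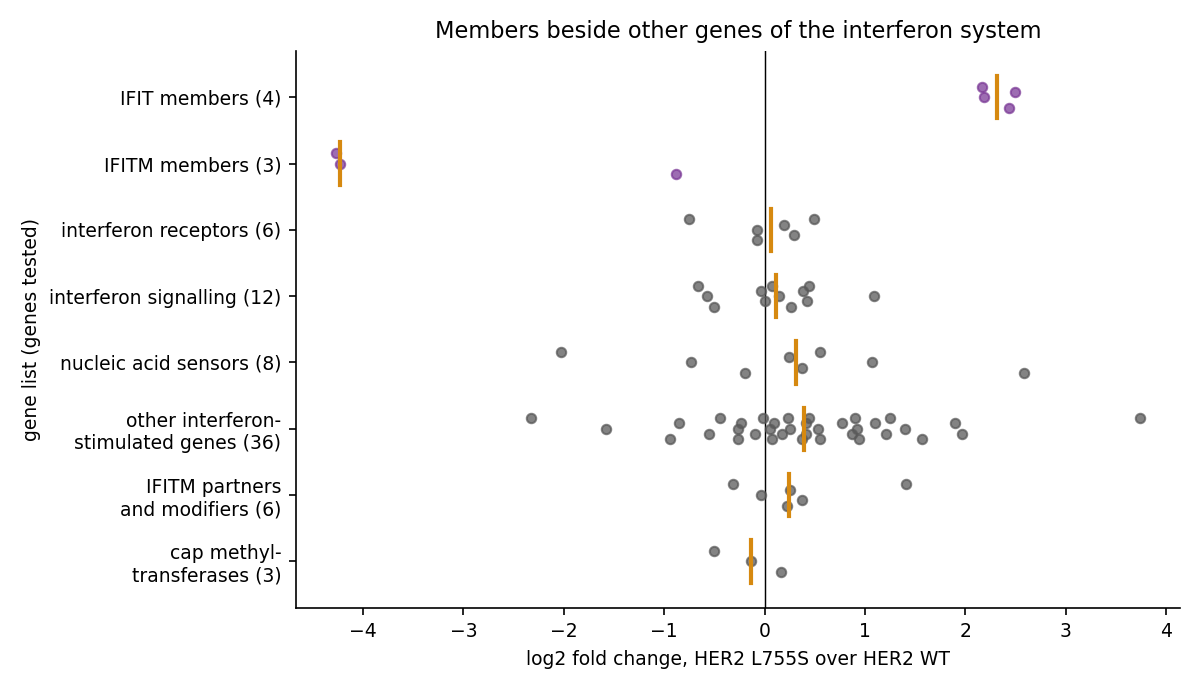
Log2 fold change of HER2 L755S over HER2 WT for the members (purple) and for tested genes of other interferon lists (grey), 1 point per gene, with an orange bar at the median of each list. The medians of the receptor, signalling, sensor and interferon-stimulated gene lists lie between 0.06 and 0.39. Single genes of these lists reach from -2.33 (SP100) to 3.74 (CMPK2, with few counts). The 4 IFIT genes lie between 2.17 and 2.49, IFITM1 at -0.88, and IFITM2 and IFITM3 at -4.23 and -4.27.

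Of 6 partners and modifiers of IFITM proteins, SETD7 came nearest to the threshold. SETD7, a methyltransferase that acts on IFITM3, stood at 166 and 172 CPM in HER2 L755S, against 54.0 and 73.9 CPM in HER2 WT libraries (log2 fold change 1.41, SE 0.32, adjusted p = 0.054). It was the 1 gene of the list at an unadjusted p under 0.05, and DESeq2 and limma-voom called it (adjusted p = 0.0019 and 0.047). So did edgeR with DESeq2's size factors (0.049), with at least 50 counts in 2 libraries (0.0465) and with no filter (0.0048). With no scaling edgeR did not call SETD7 (adjusted p = 0.074). Its log2 fold change was 1.19 without HER2 WT 1 and 1.66 without HER2 WT 2. The palmitoyltransferase gene ZDHHC20 and the ubiquitin ligase gene NEDD4 had log2 fold changes of -0.04 and 0.22. The 3 cap methyltransferase genes, whose products methylate RNA caps, had log2 fold changes between -0.51 and 0.17, and none was called by edgeR, DESeq2 or limma-voom or at an unadjusted p under 0.05.

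Of 5 further genes and pseudogenes of the families, IFITM10 alone had enough counts to test. It had 76 and 34 counts in HER2 L755S 1 and 2 and 252 and 110 counts in HER2 WT 1 and 2, a log2 fold change of -1.56 (SE 0.52, edgeR adjusted p = 0.22). It passed in edgeR with no filter (adjusted p = 0.042), and DESeq2 and limma-voom did not call it (0.13 and 0.24). Its log2 fold change was -2.12 without HER2 L755S 1 and -0.95 without HER2 WT 1. IFIT1B, IFIT6P and IFITM4P stood at 0 counts in all 4 libraries, and IFITM5, expressed in bone, had at most 2.

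The genes around the IFITM cluster were also mostly lower in HER2 L755S cells, by less than IFITM2 and IFITM3. Within 500 kb, 35 other genes were tested, 33 had a negative log2 fold change, and the median was -0.55 (-0.63 within number 1 and -0.49 within number 2), beside -0.27 for the 865 tested genes of chromosome 11. That of IFITM1, -0.88, lay within the range of these neighbours, from -1.91 to 0.39, and those of IFITM2 and IFITM3 lay outside it. The low end is AC136475.2, at no more than 0.865 CPM in any library. It lies within the span of IFITM2, and AC136475.1 (-1.29) overlaps that of IFITM3. Both are annotated as antisense, and with no stated strand setting their reads may be shared with these members. The 1 neighbour called was PGGHG (ATHL1 in the tables), a glucosidase gene just before the cluster. It stood at 17.3 and 17.5 CPM in HER2 L755S, against 65.0 and 41.6 CPM in HER2 WT libraries (log2 fold change -1.61, SE 0.36, adjusted p = 0.0494). It lost its call with limma-voom (adjusted p = 0.056) and without HER2 L755S 1, HER2 L755S 2 or HER2 WT 1 (0.098, 0.099 and 0.21). B4GALNT4, the nearest tested gene on the other side, had a log2 fold change of -0.56 (edgeR adjusted p = 0.75). Without HER2 WT 1 the median of the neighbours was -0.11, and without HER2 L755S 2 it was -0.31. The part of the region in the IFITM difference was not tested.

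Between the replicate numbers the same 35 neighbours ran the other way from IFITM1. Of them 16 were called lower and 0 higher in number 2 (edgeR), beside 9.94% lower and 8.26% higher over all tested genes. DESeq2, limma-voom and an unadjusted p under 0.05 gave 0 higher as well. The median of the neighbours was -0.65, beside -0.028 over all tested genes, while IFITM1 was higher. Around the IFIT cluster 4 other genes were tested. AL353751.1, annotated as antisense, lies on the plus strand within the span of IFIT2, so its reads may be shared with IFIT2. It had a log2 fold change of 2.54 (SE 0.78, edgeR adjusted p = 0.17), with 1.82 within number 1 and 2.84 within number 2, and no overlap between the lines. LIPA, which encodes a lysosomal lipase and whose annotated span on the minus strand overlaps the cluster, had a log2 fold change of 0.77, and PANK1, a pantothenate kinase gene beyond it, had -0.03 (edgeR adjusted p = 0.41 and 1.00). KIF20B, a kinesin gene further on, had -0.30 (adjusted p = 0.98).

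**Figure D5:**
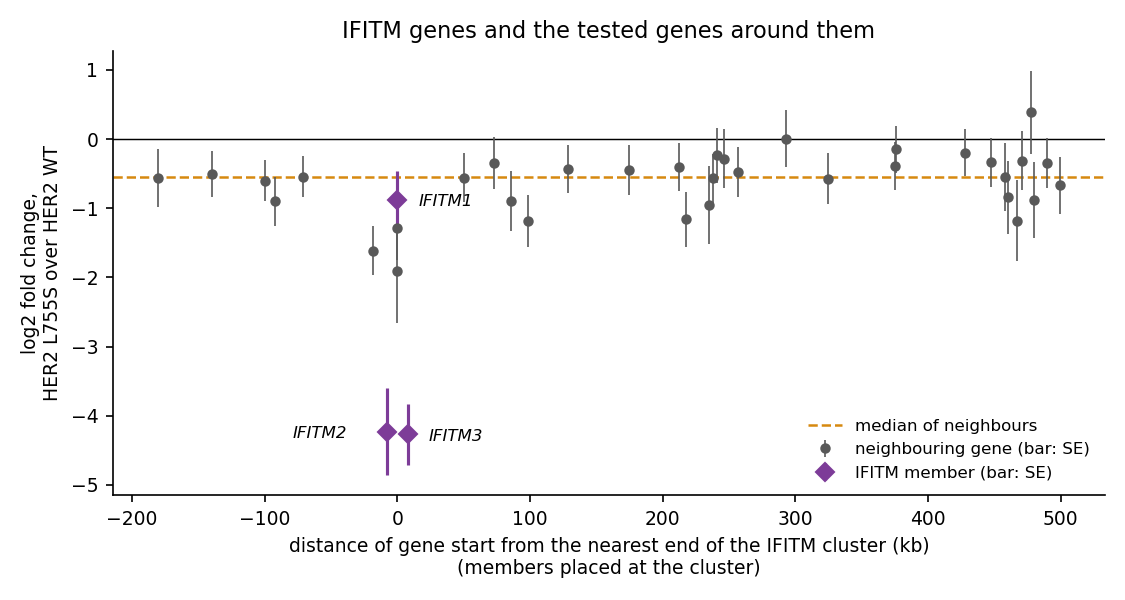
Log2 fold change of HER2 L755S over HER2 WT (bars: SE) of the IFITM genes (purple) and of the 35 tested genes within 500 kb (grey) against distance from the cluster in kb, with members set side by side at the cluster for legibility. Most neighbours lie near their median of -0.55 (dashed line), with IFITM1 at -0.88 among them and IFITM2 and IFITM3 at -4.23 and -4.27.

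Likeness between genes was measured over the 4 libraries as the root-mean-square distance of centred log2 CPM. Of 14198 genes with at least 1 CPM, 1 was nearer to IFIT1 than IFIT3 was, the unnamed transcript AC020571.3 (0.178, against 0.181 for IFIT3). The next were ITGA2, an integrin subunit gene (0.216), the pseudogene RPL3P4 (0.245), whose reads may be shared with its parent gene, and KLF9, a transcription factor gene (0.250). IFIT5 and IFIT2 followed at 0.432 and 0.490, with 12 and 22 genes nearer. Among the genes nearest to IFITM1 were AC007620.3, CHCHD7, RP11-290F24.6 and HELB, at 0.0576 to 0.0607. IFITM3 lay far from IFITM1 at 1.87, with 14060 genes nearer, and close to IFITM2 at 0.327.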

How the data were processed

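Poly(A) RNA (250 ng of total RNA, TruSeq kit, NovaSeq) was sequenced, per the labels' protocols. Per the file headers the authors deposited RSEM tables with an expected count, a TPM and an FPKM per gene, where the FPKM were not used. The expected counts are estimates and partly fractional, and the deposited TPM are per length. STAR, edgeR and GRCh38 appear, without roles, in the submitters' processing notes. The annotation, the strand setting and what was merged for the number 2 tables are not given in the sources used here. With no stated strand setting, antisense transcripts may be mixed in.

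Counts were rounded, filtered with filterByExpr, scaled with TMM (factors 0.937 to 1.04) and tested with edgeR 4.0.16 (glmQLFTest, two-sided) in R 4.3.3, with Benjamini-Hochberg adjustment at 0.05. Log2 CPM used a prior count of 0.5. Each SE was derived as the size of the log2 fold change over the square root of glmQLFTest's F statistic, and was not estimated directly. The line was compared without other terms, and the replicate number with the line as a term. The tests were tried on simulated data. DESeq2 1.42.0 and limma-voom 3.58.1 were alternatives. Members and lists were chosen with earlier results of these data known. Named genes were the members, called or top genes of each list, the nearest and any called neighbours, and the 5 genes most like the most abundant member of each family. Some genes that this rule or the lists hold are not reported here. Other names, including those of genes called between numbers, were chosen after their values were seen. Intervals are exact binomial and cover counting error only. No 2 libraries had equal counts at more than 13.9% of genes, so none was a copy of another. Libraries made from the same RNA or culture would differ as well, so this does not show whether any were technical repeats.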

Additional observations from a re-analysis of the deposited data

Results flagged for a closer look

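Between the replicate numbers, IFITM3 was lower in number 2 in HER2 L755S cells and nearly level in HER2 WT cells, so the signs differed. The HER2 L755S libraries held 75 and 32 counts of it and the HER2 WT libraries 1170.77 and 1096.67. Number 2 minus number 1 was -1.03 in log2 CPM in HER2 L755S cells and 0.06 in HER2 WT cells. With 1 library per line and number this difference was not tested.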

How the results depend on the processing

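The direction of each of the 7 members and of both family sums between the lines was the same under all 12 alternatives run, with the IFIT sum from 1.82 to 3.12 and the IFITM sum from -2.32 to -1.52, the extremes coming from leaving out 1 library. Genes called higher and lower numbered 122 and 157, and 49 and 49 at an adjusted p of 0.01, 276 and 309 with DESeq2, 328 and 431 with no filter, and 160 to 220 and 184 to 328 with 1 library left out, where the spread of its line was taken from the other line. Interferon list genes called higher and lower numbered 2 and 0, and 6 and 2 with DESeq2 and with no filter, and 2 to 4 and 0 to 1 with 1 library left out. Neighbours of the IFITM cluster called lower numbered 1, 0 with limma-voom and 0 to 1 with 1 library left out, and their median ran from -0.846 to -0.109. With the replicate number as a block the counts were 725 higher and 1018 lower over all genes, 15 and 3 in the interferon lists and 9 neighbours lower. The block also gave calls for BST2, OASL, CMPK2, SP100, IRF9, CGAS, STING1, IFITM10 and SETD7 (edgeR adjusted p from 0.0001031 for SETD7 to 0.0267 for CMPK2). Deviations of same-numbered libraries correlated at r = 0.425 over genes, and with 2 numbers whose meaning the labels do not give, the block is a hint from the data and not a pairing by design.

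Between the numbers, genes called higher and lower were 1366 and 1644, 833 higher with no scaling, 741 and 964 with no filter, and 0 and 0 with no term for the line. With no term for the line, IFIT1, IFIT5 and IFITM1 had log2 differences of 1.07, 1.15 and 0.80 and were not called, and IFITM3 reversed to 0.0109. That fit counts the differences between the lines as spread within each number. The part of this in the lost calls and in the IFITM3 value was not tested. A library could not be left out of this test, since no residual degree of freedom would remain. Alternatives for neighbours and named list genes were chosen after seeing the data. Depth limits IFITM2, with 3 counts in HER2 L755S 2, and IFIT3, with 13 in HER2 WT 1.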
